A study of Homo sapiens with 8 samples.

Results

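The genes described are 9 that set or sense the phosphorylation of eIF2alpha: the 4 eIF2alpha kinases (EIF2AK1, EIF2AK2, EIF2AK3 and EIF2AK4), the regulators GCN1, IMPACT and DNAJC3, and the 2 regulatory subunits of the eIF2alpha phosphatase (PPP1R15A and PPP1R15B). They were chosen by symbol from the 60651 genes of a table of ribosome-footprint levels, and all 9 were found and passed the filter on low values that left 11778 genes for testing. The levels came from ribosome profiling, which sequences the mRNA fragments covered by ribosomes, in IMR32, a human neuroblastoma line with amplified MYCN that the labels give as wild type, neuroblast and from brain. Cells of 4 libraries were given CR31B, a silvestrol analogue that inhibits the RNA helicase eIF4A, for 6 h, and cells of the 4 control libraries were given DMSO at 0.1%. All were exposed to cycloheximide before harvest, the labels give no CR31B dose, and IMR32 is a single cell line, so all libraries share one genetic background. The series is about translation controlled by eIF4A in neuroblastoma driven by MYCN, and the comparison here asks how the genes that set eIF2alpha phosphorylation stood when eIF4A was inhibited.

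The factor eIF2 brings the initiator tRNA to the ribosome, and phosphorylation of its alpha subunit blocks its recharging by eIF2B and slows most initiation. Each kinase answers to another signal: HRI (EIF2AK1) to haem shortage and mitochondrial stress, PKR (EIF2AK2) to double-stranded RNA, PERK (EIF2AK3) to unfolded protein in the endoplasmic reticulum, and GCN2 (EIF2AK4) to uncharged tRNA and stalled ribosomes. A few mRNAs with upstream open reading frames, ATF4 among them, are translated better in that state, and PP1 bound to PPP1R15A or PPP1R15B removes the phosphate again. Footprint levels here report the share of each gene in the ribosome-covered mRNA of a library, not an absolute amount. They do not report the activity of the kinases or the phosphorylation of eIF2alpha, and mRNA levels were not analysed here.

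Under CR31B, PPP1R15B, the constitutive phosphatase subunit, rose 1.50-fold, and it was the only member called among 9 (limma adjusted p under 0.05). The background for that count is 7.46% of all genes tested (3.45% called higher and 4.02% called lower), so 1 of 9 is not a result about the members as a group. The members' median log2 fold change was 0.022, beside 0.029 over all genes tested, with 5 members above 0 and 4 below, and 54.1% of all genes above 0. An unadjusted limma p under 0.05 was found for 4 members, against 23.4% of all genes. The CR31B and DMSO libraries did not overlap for 3 members (PPP1R15B and IMPACT higher, EIF2AK2 lower), against 16.2% of all genes. The 1.50-fold value is the ratio of the mean TPM of the groups, and log2 fold changes are differences of log2(TPM + 1), where TPM is the length-scaled footprint level that sums to the same total in every library. A rise or fall is thus relative to the other genes of a library, and a change shared by all genes would not show.

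**Figure D1:**
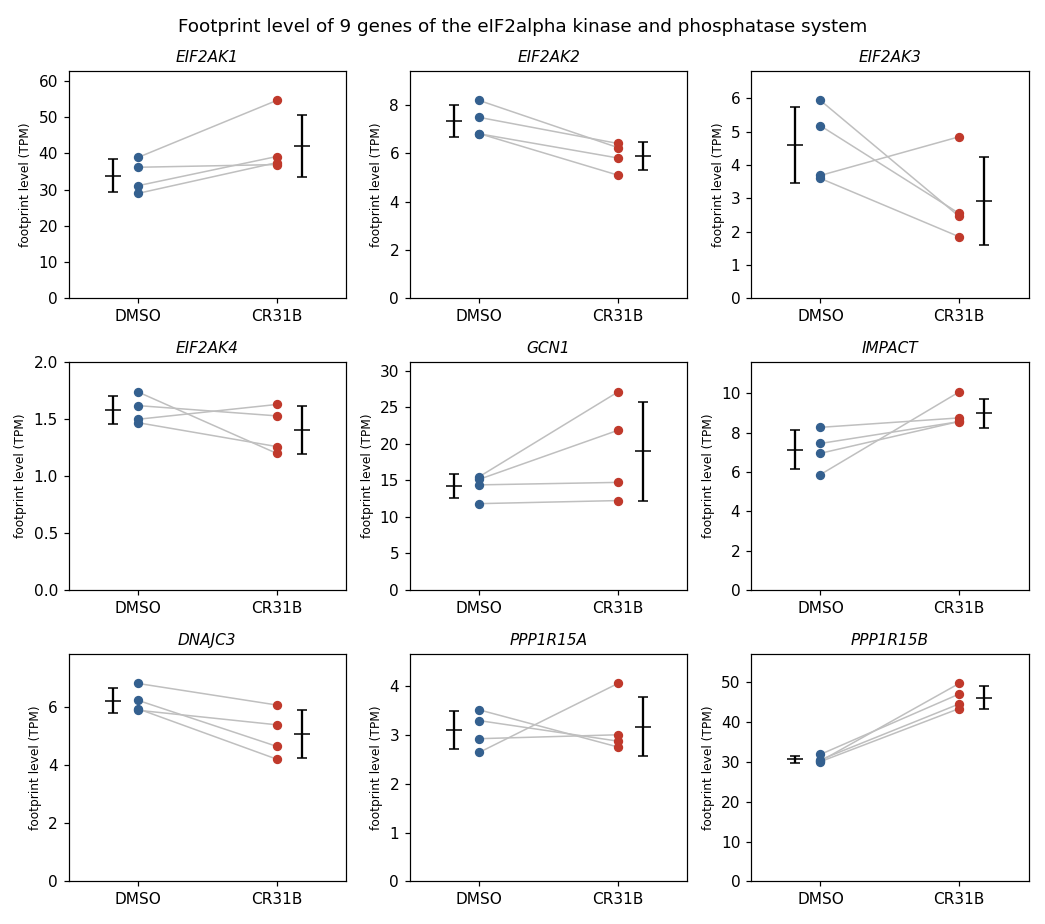
Footprint level (TPM, vertical axis starting at 0) of each of the 9 genes in the 4 DMSO (blue) and 4 CR31B (red) libraries; grey lines join libraries with the same replicate number, and the black bars beside the points are the mean ± SD. The PPP1R15B libraries lie at 30.1 to 31.92 TPM in DMSO and at 43.43 to 49.74 TPM in CR31B, whereas the groups of most other genes overlap.

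The libraries differed in ways that touch these genes. Reads were estimated from the TPM steps of short single-transcript genes, and the value of 1 read, in TPM times nucleotides, was 16.1 to 22.7 under CR31B against 10.8 to 18.55 under DMSO, so CR31B replicate 3 was the shallowest library. The share of TPM in protein-coding genes ran from 51.8% to 61.3% over the libraries. Among 10 markers of adrenergic neuroblastoma cells, 9 had a mean of at least 1 TPM in each group, and their summed level was 703 to 812 TPM in CR31B and 639 to 825 TPM in DMSO. Of 6 mesenchymal markers 1 reached that mean, with sums of 6.12 to 17.2 TPM over all libraries, and PRRX1, a defining one, was listed at 0 in all 8 libraries. The 5 Schwann and glial markers summed to 0.61 to 2.08 TPM with SOX10 at 0 throughout, and the 5 leukocyte markers to at most 0.22 TPM. In such bulk lysates fewer cells of a type and less RNA per cell cannot be told apart. CR31B replicate 3 held the highest level of its group for 5 of the 9 members (EIF2AK1, EIF2AK4, GCN1, IMPACT and PPP1R15A); the part of its depth in this was not tested.

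Of the kinases, HRI had the highest footprint level in TPM and GCN2 the lowest. TPM is scaled for the whole transcript and not for the coding sequence, whose share of the transcript differs between these genes. None of the 4 kinases passed the test. EIF2AK1 (ENSG00000086232.13) read 37.42, 39.1, 54.55 and 36.88 TPM under CR31B (replicates 1 to 4, the order kept below) against 28.94, 31.06, 38.85 and 36.14 TPM under DMSO. Each CR31B library lay above the DMSO library of the same number, but the groups overlapped, because DMSO replicate 3 was higher than 2 of the CR31B libraries. By limma the log2 fold change came to 0.30 with an SE of 0.15 (95% confidence interval of the fold change, -0.040 to 0.63; adjusted p = 0.273), and without CR31B replicate 3 it was 0.17. Its exons share positions with AIMP2 on the opposite strand, a gene read at 42.8 to 56.7 TPM, and the sources used here do not give the strand setting, so the level is uncertain.

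EIF2AK2 (ENSG00000055332.19), the kinase activated by double-stranded RNA, read 6.41, 5.1, 5.81 and 6.24 TPM under CR31B against 7.49, 6.82, 6.81 and 8.19 TPM under DMSO. All CR31B libraries lay below all DMSO libraries. Its log2 fold change of -0.27 (SE 0.12, 95% interval -0.55 to -0.0017) nevertheless missed the threshold over all genes, with a limma adjusted p of 0.211. The exact permutation p was 0.0286, the smallest that 4 against 4 allow. Its estimated 2563 to 6641 reads per library rest on the 10042 nt of its principal transcript, which shares exon positions with GPATCH11 (11.1 to 18.1 TPM).

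EIF2AK3 (ENSG00000172071.14), the endoplasmic reticulum kinase PERK, had the lowest log2 fold change of the 9 genes. Its levels were 2.55, 1.85, 2.46 and 4.85 TPM under CR31B against 5.18, 3.6, 5.94 and 3.69 TPM under DMSO. Of the CR31B libraries 3 lay below every DMSO library, while CR31B replicate 4 lay within the DMSO range. Limma gave a log2 fold change of -0.54 with an SE of 0.23 (95% interval -1.06 to -0.032; adjusted p = 0.188), and leaving out CR31B replicate 4 gave -0.75 with an adjusted p of 0.0611. It lay at the 5.70th percentile of all genes tested.

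EIF2AK4 (ENSG00000128829.12), the amino acid sensor GCN2, was the lowest member in both groups, with 1.53, 1.2, 1.63 and 1.26 TPM under CR31B against 1.62, 1.74, 1.5 and 1.47 TPM under DMSO. The groups overlapped in part, with CR31B replicates 2 and 4 below every DMSO library, and gave a log2 fold change of -0.11 (95% interval -0.41 to 0.20, limma adjusted p of 0.699). Its reads were estimated at 346 to 881 per library, with the 5499 nt of its principal transcript taken as the length of the gene.

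Summed over the 4 kinases, the footprint level was 52.2 ± 8.20 TPM under CR31B against 47.3 ± 4.89 TPM under DMSO (SD, 4 libraries each). EIF2AK1 made up 74.9% to 84.6% of that sum in CR31B and 66.9% to 73.2% in DMSO, so the 2 ranges did not touch. EIF2AK3 took 3.82% to 9.85% in CR31B and 7.46% to 11.98% in DMSO. The share of EIF2AK2 was 11.5% ± 1.96 in CR31B and 15.6% ± 1.97 in DMSO, and that of EIF2AK4 2.71% ± 0.326 and 3.39% ± 0.585 (SD, n = 4 each). These shares are descriptive, since each moves with the other 3, and they are shares of TPM and not of footprints per coding length.

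**Figure D2:**
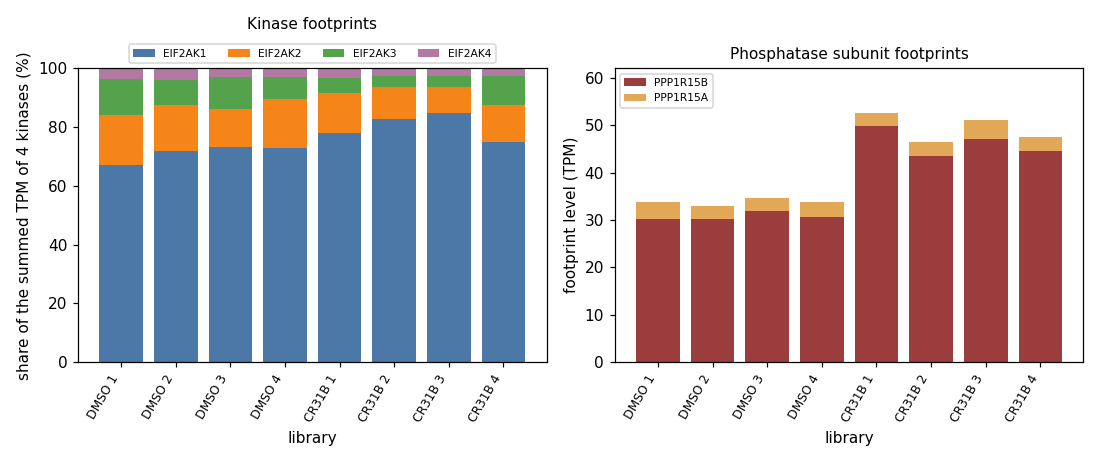
Left, the share of each kinase in the summed TPM of the 4 kinases (percent, stacked to 100) in each library; right, the footprint levels of PPP1R15B and PPP1R15A (TPM, stacked from 0) in each library. EIF2AK1 is the largest kinase segment in all 8 libraries, and the stacked phosphatase bars reach 46.4 to 52.5 TPM in CR31B against 33.02 to 34.6 TPM in DMSO.

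The regulators of GCN2 act in opposite directions: GCN1 binds the kinase and is needed for its activation on ribosomes, and IMPACT competes for GCN1 and restrains it. GCN1 (ENSG00000089154.11) read 21.85, 14.72, 27.1 and 12.23 TPM under CR31B against 15.14, 14.38, 15.5 and 11.81 TPM under DMSO. CR31B replicates 1 and 3 were high, while replicates 2 and 4 were close to their DMSO partners. The log2 fold change of 0.34 (SE 0.22, 95% interval -0.15 to 0.82; limma adjusted p = 0.394) was 0.15 without CR31B replicate 3 and was 0.51 without CR31B replicate 4.

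IMPACT (ENSG00000154059.11) read 8.75, 8.57, 10.07 and 8.56 TPM under CR31B against 8.27, 6.95, 5.87 and 7.45 TPM under DMSO. Every CR31B library was above every DMSO library, by a small margin at the nearest pair. Its log2 fold change was 0.30 (SE 0.13, 95% interval 0.015 to 0.59), and the limma adjusted p was 0.192 (exact permutation p of 0.0286). The log2 ratio of GCN1 to IMPACT averaged 0.94 ± 0.42 under CR31B against 0.90 ± 0.28 under DMSO (SD, 4 libraries each). That difference was far inside the spread (exact permutation p = 0.914), with 2 of 4 replicate pairs on each side.

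DNAJC3 (ENSG00000102580.15), also called P58IPK, is a chaperone of the endoplasmic reticulum known as an inhibitor of PKR and PERK. Its levels were 6.06, 4.2, 5.38 and 4.64 TPM under CR31B against 6.8, 5.93, 5.88 and 6.22 TPM under DMSO. It was lower in CR31B in 4 of 4 replicate pairs, and the groups overlapped at 1 CR31B library. Its log2 fold change of -0.26 (SE 0.13) missed the threshold, with a limma adjusted p of 0.283. The log2 ratio of EIF2AK3 to DNAJC3 averaged -0.67 ± 0.49 under CR31B against -0.38 ± 0.29 under DMSO (SD, 4 libraries each), with an exact permutation p of 0.371 (0.557 after adjustment over 3 ratios). The difference of -0.29 was -0.53 without CR31B replicate 4 and -0.16 without DMSO replicate 3.

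PPP1R15B (also CReP), which serves unstressed cells, and PPP1R15A (also GADD34), which is induced by ATF4 and CHOP in stressed cells, both recruit PP1 to eIF2alpha. Promoter sequence is shown for these genes because they share a role and 1 of them was the member that passed the test. The windows below are from RefSeq's promoter table (GRCh38.p14), which held 8 of the 9 members, EIF2AK1 being the other; each is written 5′ to 3′ on the gene's strand, and capitals mark letters that match a motif searched. The PPP1R15B window is chr1:204411908-204412067, minus strand, from 250 to 91 bases before the start site. The PPP1R15A window is chr19:48872256-48872385, plus strand, from 165 to 36 bases before the start site. Neither window overlaps an exon of GENCODE release 29.
PPP1R15B: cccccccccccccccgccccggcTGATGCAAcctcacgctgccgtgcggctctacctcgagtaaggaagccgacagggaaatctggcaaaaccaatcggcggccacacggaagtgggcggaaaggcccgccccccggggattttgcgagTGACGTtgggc
PPP1R15A: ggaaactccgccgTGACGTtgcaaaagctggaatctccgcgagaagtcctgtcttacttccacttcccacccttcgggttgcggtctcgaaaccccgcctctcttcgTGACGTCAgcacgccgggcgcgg

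PPP1R15B (ENSG00000158615.9) read 49.74, 43.43, 47.08 and 44.59 TPM under CR31B against 30.24, 30.1, 31.92 and 30.58 TPM under DMSO. The groups were far apart relative to their scatter, averaging 46.2 ± 2.80 TPM against 30.7 ± 0.831 TPM (SD, 4 libraries each). Limma gave a log2 fold change of 0.57 with an SE of 0.097 (95% interval 0.36 to 0.79; adjusted p = 0.00766), and all 4 replicate pairs had the higher level under CR31B (exact permutation p = 0.0286). The value rests on an estimated 8946 to 16062 reads per library, on the gene's 1 annotated transcript of 5227 nt, and its exons overlap no other annotated gene. The call held in all 17 alternatives run, with a log2 fold change from 0.54 to 0.61 and a limma adjusted p from 0.00318 to 0.0331, the latter without DMSO replicate 4.

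PPP1R15A (ENSG00000087074.8) read 2.75, 3, 4.05 and 2.87 TPM under CR31B against 3.51, 2.92, 2.64 and 3.29 TPM under DMSO. The groups overlapped, and CR31B was higher in 2 of the 4 replicate pairs. Its log2 fold change was 0.022 (SE 0.15, 95% interval -0.30 to 0.35, limma adjusted p of 0.950), and its sign turned under 3 of the alternatives, to -0.074 without CR31B replicate 3. An estimated 334 to 635 reads per library underlie it. The interval gives the changes that these values allow and is not a limit of detection, so a larger change could also have missed the threshold.

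Whether the phosphatase subunits changed differently was tested on their log2 ratio in each library. PPP1R15A minus PPP1R15B was -3.76, -3.47, -3.25 and -3.56 in CR31B and -2.79, -2.99, -3.18 and -2.88 in DMSO. Every CR31B value lay below every DMSO value, the nearest being the libraries with replicate number 3. The difference was -0.55 (exact permutation p of 0.0286, two-sided over 70 assignments, adjusted 0.0857 over the 3 ratios tested), so the ratio passed alone and missed the threshold after adjustment. With 4 against 4 libraries a single ratio at the smallest exact p cannot go below 0.0857 after adjustment over 3, so the design fixed that miss. The unadjusted exact p was 0.0571 without CR31B replicate 1, without DMSO replicate 1, 2 or 4, and with a pseudocount of 0.1. PPP1R15B supplied 93.6% ± 1.12 of the pair's summed TPM under CR31B against 90.9% ± 1.19 under DMSO (SD, 4 libraries each). The sum of the kinases divided by the sum of the phosphatase subunits was 0.913 to 1.26 in CR31B and 1.28 to 1.54 in DMSO, a description that repeats the PPP1R15B values.

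**Figure D3:**
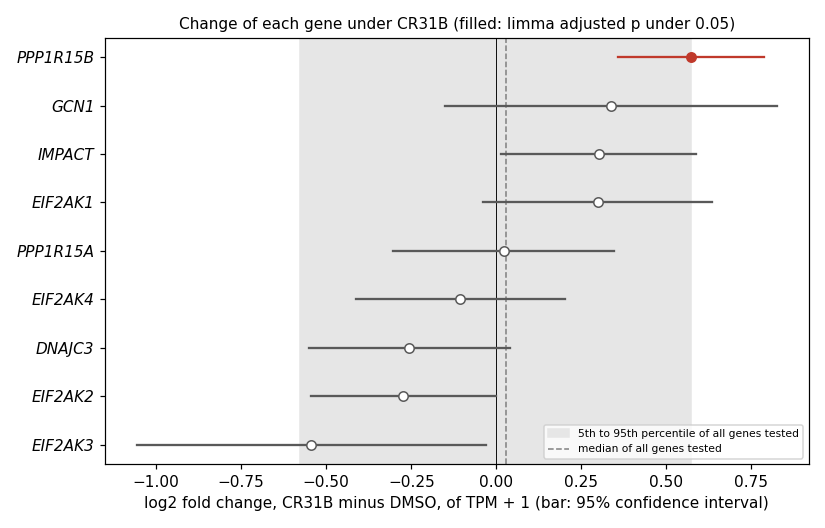
Log2 fold change of TPM + 1 (CR31B minus DMSO, horizontal axis) of each of the 9 genes with its 95% confidence interval, the filled point being the gene with a limma adjusted p under 0.05; the grey band runs from the 5th to the 95th percentile of all genes tested (-0.58 to 0.57) and the dashed line marks their median of 0.029. PPP1R15B is the single filled point, at 0.57, and EIF2AK3 is the lowest, at -0.54.

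The motifs searched in the promoters were the C/EBP-ATF response element TGATGNAA, the cyclic AMP response element TGACGTCA and its shorter form TGACGT, and the endoplasmic reticulum stress elements ERSE and ERSE-II, on both strands. TGATGNAA occurred in 1 of the 8 member promoters, that of PPP1R15B, from 227 to 220 bases before the start, and in 3.62% of 35116 promoters of the same length. TGACGTCA occurred in 1 of the 8, that of PPP1R15A, from 58 to 51 bases before the start, and in 1.85% of all promoters. TGACGT, which lies inside TGACGTCA, was found in both phosphatase subunit genes and in 7.98% of all promoters. ERSE and ERSE-II matched no member, and 0.0769% and 0.0541% of all promoters. Among 52 genes of the pathway lists described below that the promoter table held, TGATGNAA occurred in 3: HERPUD1, CHAC1 and ASNS. CHAC1 and ASNS rose, while HERPUD1, a gene of protein disposal at the endoplasmic reticulum, had a log2 fold change of -0.56 with every CR31B library below every DMSO library (limma adjusted p = 0.0914, and 0.0495 with the replicate block). All 3 matches are shown for comparison with that of PPP1R15B, at chr16:56931955-56931984 on the plus strand for HERPUD1, chr15:40953251-40953280 on the plus strand for CHAC1, and chr7:97872458-97872487 on the minus strand for ASNS, with the match in capitals (in HERPUD1 and CHAC1 it is read on the opposite strand).
HERPUD1: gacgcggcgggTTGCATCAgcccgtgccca
CHAC1: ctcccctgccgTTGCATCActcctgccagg
ASNS: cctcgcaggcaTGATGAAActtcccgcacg
A match is a run of letters and not a measured binding site.

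TPM is scaled for the length of the whole transcript, while ribosomes cover mainly the coding sequence. That sequence is 1653 of 10042 nt in the principal transcript of EIF2AK2 and 8013 of 8675 nt in that of GCN1. The order of levels given here is therefore one of TPM and not of footprints per coding length. In DMSO the means ran from EIF2AK1 (33.7 TPM) through PPP1R15B (30.7), GCN1 (14.2), EIF2AK2 (7.33), IMPACT (7.14), DNAJC3 (6.21), EIF2AK3 (4.60) and PPP1R15A (3.09) to EIF2AK4 (1.58). Neighbouring ranges overlapped between EIF2AK1 and PPP1R15B and along the run of EIF2AK2, IMPACT, DNAJC3 and EIF2AK3, so neighbours there cannot be ordered. Within that run EIF2AK2 (6.81 to 8.19 TPM) lay above EIF2AK3 (3.6 to 5.94 TPM) and, by a narrow margin, above DNAJC3 (5.88 to 6.8 TPM). In CR31B PPP1R15B (46.2 TPM) stood first with EIF2AK1 (42.0) next and overlapping, IMPACT (8.99) lay above EIF2AK2 (5.89) with no overlap, and the ranges of PPP1R15A (3.17) and EIF2AK3 (2.93) overlapped. EIF2S1, which encodes the substrate eIF2alpha, averaged 166 ± 17.5 TPM under CR31B against 151 ± 16.2 TPM under DMSO (SD, 4 libraries each). Its level was 3.10 to 4.03 times that of PPP1R15B in CR31B and 4.45 to 5.70 times in DMSO.

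Leaders, the stretch of mRNA before the coding sequence, bear on these values because a gene-level TPM adds footprints on upstream reading frames to those on the coding sequence. In the principal transcripts of GENCODE release 29, the leaders of PPP1R15A (269 nt) and PPP1R15B (380 nt) each held 2 ATG triplets followed by a stop inside the leader. EIF2AK3 had the most, 5 ATG triplets in 302 nt, of which 4 met a stop there. EIF2AK2 and IMPACT had 1 ATG triplet each, which met a stop inside the leader in EIF2AK2 but not in IMPACT. EIF2AK1, EIF2AK4, GCN1 and DNAJC3 had none. Over 10126 genes tested, 53.7% had at least 1 ATG triplet in the leader and 32.4% at least 2, whether or not a stop followed there. The median leader was 206 nt. GCN1 and EIF2AK4 had the shortest leaders of the members, at 13 and 43 nt, while the longest run of purines was 12 nt in PPP1R15B, 11 nt in EIF2AK2 and 8 nt in EIF2AK3, with a median of 8 nt over the same genes.

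The genes around the kinases and the phosphatase were counted in 9 lists written from general knowledge, with 54 of 56 genes tested. Of these 14 passed, 10 higher and 4 lower, where 7.46% of all genes tested did, and with the replicate number as a block 21 passed, where 12.3% of all genes did. The lists were written with earlier results of these data known, so nothing is read from the excess. Taking the lists as 1, the middle log2 fold change was 0.14, beside 0.029 over all genes. Leaving out 1 library moved the 14 calls to between 7 (without DMSO replicate 4) and 15 (without DMSO replicate 3), and 9 were left on dropping CR31B replicate 3, CR31B replicate 4 or DMSO replicate 2. Several genes of the lists share exon positions with a neighbour, and their levels are uncertain. Among those named, the neighbour is on the opposite strand for EIF2S1, EIF2B3, EIF2B5, PPP1CA, PRKRA, TARBP2, DDIT4, VLDLR, CEBPB and CALR, on the same strand for PPP1CB, OMA1 and ASNS, and on both for ATF5, DDIT3 and HSP90B1.

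The substrate and its exchange factor gave no call. Of 5 genes for eIF2 and its partners none passed, with a median of 0.13. EIF2S1 had a log2 fold change of 0.13 (limma adjusted p of 0.555), and EIF2S2, the beta subunit, had the highest of the list, with 16.73 to 19.84 TPM under CR31B against 9.87 to 15.1 TPM under DMSO (limma adjusted p = 0.0738, and 0.0407 with the replicate number as a block). Of the 5 eIF2B subunits none passed, with log2 fold changes from -0.051 for EIF2B3 to 0.23 for EIF2B5. At an unadjusted limma p under 0.05 there was 1 gene in the first list and 0 in the second.

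PP1 supplies the catalytic subunit of the phosphatase, and 1 of its 3 catalytic subunit genes passed. PPP1CC fell, with 96.03, 97.74, 75.19 and 77.1 TPM under CR31B against 114.64, 141.46, 139.94 and 146.72 TPM under DMSO. The groups did not overlap, and the log2 fold change was -0.65 (SE 0.13, limma adjusted p of 0.0163). The limma adjusted p was 0.0534 without CR31B replicate 4, 0.0511 without DMSO replicate 2 and 0.0586 without DMSO replicate 4. PPP1CA and PPP1CB had log2 fold changes of -0.21 and -0.11 (limma adjusted p of 0.336 and 0.661).

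Among regulators of the kinases, 1 of 5 passed for PKR, 1 of 6 for PERK and HRI, and 0 of 6 for GCN2, counts too small to set against the 7.46% of all genes. TARBP2, which binds double-stranded RNA and restrains PKR, rose to 9.81 ± 1.60 TPM under CR31B from 5.69 ± 1.51 TPM under DMSO (SD, 4 libraries each; log2 fold change 0.71, limma adjusted p = 0.0331), and PRKRA, a PKR activator, had a log2 fold change of -0.37 (0.209). TARBP2 shares exon positions with an antisense gene, so its value is uncertain. Its call was lost on dropping any library other than CR31B replicate 2 or DMSO replicate 4 (limma adjusted p from 0.0594 to 0.0941). HSPA5, the chaperone BiP that binds PERK, fell from 193 ± 49.9 TPM to 95.8 ± 21.1 TPM (SD, 4 libraries each), with no overlap of the groups. Its log2 fold change was -0.99 with a limma adjusted p of 0.0171, which became 0.0534 without CR31B replicate 4 and 0.0532 without DMSO replicate 4. DELE1 and OMA1, which relay mitochondrial stress to HRI, had log2 fold changes of 0.21 and 0.33 (0.477 and 0.466). No gene of the 6 GCN2 partners passed, and at an unadjusted limma p under 0.05 there was 1, RPLP1, at -0.32.

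Of 6 listed mRNAs whose translation is known to depend on phosphorylated eIF2alpha, 1 passed. The list is not a full one and holds none of the members. All 6 lay above 0 on the log2 scale, and their median was 0.39. ATF4 rose, with 313.47, 204.24, 280 and 309.47 TPM under CR31B against 172.1, 176.03, 106.21 and 181.02 TPM under DMSO. The groups did not overlap, and the log2 fold change was 0.81 (SE 0.20, limma adjusted p of 0.0338). The ATF4 call held in 10 of 17 alternatives: it was lost without CR31B replicate 1, 3 or 4 and without DMSO replicate 1, 2 or 4 (limma adjusted p from 0.0604 to 0.0906), and with no filter (0.130). Without DMSO replicate 3, its lowest library, the log2 fold change was 0.63. DDIT3, which encodes CHOP, was low, with 1.25 to 2.31 TPM under CR31B against a mean of 1.01 ± 0.113 TPM under DMSO, without overlap (log2 fold change 0.37, limma adjusted p of 0.203), and it shares exon positions with 3 other genes. ATF5 had a log2 fold change of 0.24 (0.655), which was 0.0033 without DMSO replicate 3. EPRS1 had one of 0.48 (0.108, and 0.0210 with the replicate block).

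ATF4 target genes gave 7 of the 14 calls, all higher, among 8 tested, and their median was 0.88. These counts and the median include SESN2, which was at 0.54 to 0.86 TPM in DMSO and 1.61 to 2.12 TPM in CR31B. It passed the filter of 1 TPM only through the CR31B libraries, so its call carries no weight. Earlier results of these data were known when the list was written, so its direction is not independent support. CHAC1, which degrades glutathione, went from 1.06 ± 0.300 to 5.21 ± 0.827 TPM (log2 fold change 1.59, limma adjusted p of 0.000673). DDIT4, an inhibitor of mTORC1, went from 7.73 ± 3.11 to 24.2 ± 8.52 TPM (1.53, 0.00809). ASNS, asparagine synthetase, went from 22.5 ± 4.73 to 52.8 ± 13.2 TPM (1.19, 0.00568). VLDLR, CEBPB, SESN2 and TRIB3 rose by 0.93, 0.84, 0.82 and 0.82 on the log2 scale (limma adjusted p of 0.0149, 0.00887, 0.00900 and 0.0269). With a pseudocount of 0.1 in place of 1 they rose by 1.04, 0.97, 1.44 and 1.12, and CHAC1 by 2.21. The sizes for genes at low levels thus depend on the pseudocount. The TRIB3 call was lost without CR31B replicate 1 or 3 and without DMSO replicate 2 or 4 (limma adjusted p from 0.0580 to 0.0810), and that of VLDLR without DMSO replicate 4 (0.0532). Both calls were also lost with no filter (0.104 and 0.0617). XPOT was the tested member that did not pass (0.41, 0.152), and NUPR1 and STC2 were below 1 TPM. PPP1R15A, known elsewhere as an ATF4 target, had a log2 fold change of 0.022, below the lowest value of this list.

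In the list of endoplasmic reticulum stress genes beside PERK, 2 of 10 fell and 1 rose, with a median of -0.50. HSP90B1 (GRP94) and PDIA4, both folding proteins of the endoplasmic reticulum, changed by -0.76 and -0.57 (limma adjusted p of 0.0108 and 0.0466), whereas ERN1, the stress sensor IRE1, rose by 1.06 (0.0338). With the replicate number as a block 8 of the 10 passed, where 12.3% of all genes did. The list was written with earlier results of these data known, so nothing is read from that count. Among the 8 were XBP1 (log2 fold change 0.51, limma adjusted p of 0.0383 with the block) and CALR (-0.47, 0.0166). The HSP90B1 call held in all 17 alternatives, though the gene shares exon positions with 3 others. The ERN1 call was lost on dropping any library other than CR31B replicate 4 or DMSO replicate 2 (limma adjusted p from 0.0587 to 0.0868), and that of PDIA4 on dropping any but CR31B replicate 1 or DMSO replicate 3 (0.0739 to 0.122). DNAJC3 had a value of the same sign as HSPA5 and HSP90B1 that did not pass.

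**Figure D4:**
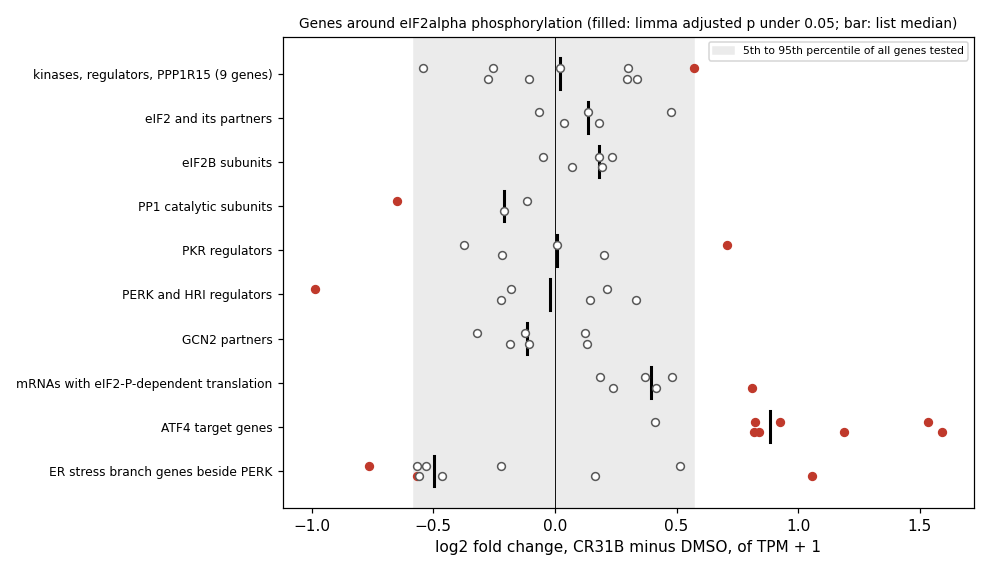
Log2 fold change of TPM + 1 (CR31B minus DMSO, horizontal axis) of each tested gene of the 9 members (top row) and of the 9 pathway lists; filled points have a limma adjusted p under 0.05, thick bars are list medians, and the grey band is the 5th to 95th percentile of all genes tested. The row of ATF4 target genes lies to the right with a median of 0.88 and the row of endoplasmic reticulum stress genes to the left with a median of -0.50, while the members centre on 0.022.

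The genes with the profile most like that of PPP1R15B, the member with the smallest p, were found by the root mean square difference of log2(TPM + 1) from each gene's DMSO mean over the 8 libraries. The nearest 5 were BRWD1 (0.058), MAK16 (0.061), CCDC59 (0.065), PHF3 (0.069) and UBE3A (0.074), against a median of 0.45 over all genes tested. Their log2 fold changes were 0.54, 0.59, 0.59, 0.54 and 0.51. Since the measure uses both groups, these genes share the size of the change by construction.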

How the data were processed

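Ribosome-footprint libraries of IMR32 cells (4 CR31B, 4 DMSO) were analysed from 1 table of TPM that the authors deposited. The submitters' processing notes name cutadapt 3.2, Bowtie2 2.3.4.1, STAR 2.7.1a, RSEM 1.2.28, DESeq2 1.32.0 and GRCh38 without their roles. The annotation, strand setting and handling of multiply mapping reads are not given in the sources used here. TPM forces a fixed sum, so a class of RNA that rises lowers all others.

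Symbols were matched for 60481 of 60651 identifiers. Genes averaging 1 TPM or more were analysed as log2(TPM + 1), a scale that shrinks the changes of genes at low levels. Each gene was fitted on treatment alone with limma 3.58.1 in R 4.3.3 (lmFit, then eBayes with a trend), with Benjamini-Hochberg adjustment over 11778 genes. On 5 simulated tables with 200 changed genes, 86.3% were recovered (96.8% of the 4-fold changes) and 4.43% of calls were false. The changes put in were all larger than any seen in the members, so this recovery does not apply to changes of the members' size. The simulated noise was independent between libraries, unlike that of same-numbered libraries here. For single values an exact permutation of the libraries was used, two-sided (smallest p 0.0286). Python 3.11.15 served for other steps. Reads were estimated from the TPM steps of transcripts of 100 to 600 nt, of which 42.9% to 53.1% lay within 0.1 of a whole step, so they are approximate. They also take the principal transcript as the length of a gene, although EIF2AK4, for example, has 11 annotated transcripts. No reads were assigned to single transcripts. The depositors' labels do not say what separates replicates beyond calling them biological, so p-values measure the spread between these libraries.

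Same-numbered libraries deviated together from their group means (correlations across genes of 0.105 to 0.333, against -0.206 to 0.134 for different numbers), and the numbers were treated as pairs in an alternative fit. Alternatives were pseudocounts of 0.1 and 0.5, no filter or one of 10 TPM, quantile, protein-coding and median rescaling, eBayes without trend, the replicate block and leaving out each library. All members were named. From the lists, genes with an adjusted p under 0.05, the highest and lowest of a list, and ATF4, ATF5, DDIT3 and EIF2S1 could be named, though not every highest or lowest gene was. PPP1CA, DELE1, EPRS1, XBP1, CALR and HERPUD1 were added after their values were seen. For likeness, the 5 genes nearest the member with the smallest p were named. Members and lists were chosen with earlier results of these data known.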

Additional observations from a re-analysis of the deposited data

Results flagged for a closer look

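A library was singled out when its gap to the nearest of the other 3 of its group made up most of the group's range. This happened in 7 of 58 groups of 4, where chance gives about 1 in 20, or 2.9, so single cases carry little weight. In CR31B replicate 3 EIF2AK1 stood at 54.55 TPM against 39.1 TPM in the next library, and IMPACT at 10.07 TPM against 8.75 TPM. The log2 ratio of EIF2AK3 to DNAJC3 was 0.053 in CR31B replicate 4, against -0.87 in the next and -0.99 in the lowest library of that group. In DMSO, ATF4 was low in replicate 3, at 106.21 TPM against 172.1 TPM in the next. TARBP2 was high in DMSO replicate 4, at 7.94 TPM against 5.13 TPM. CHAC1 and DDIT4 were both high in DMSO replicate 1, at 1.51 TPM against 0.96 TPM and at 12.34 TPM against 6.77 TPM.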

How the results depend on the processing

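The number of members called was 1 under every alternative run, and that gene was PPP1R15B in all 17; a filter of 10 TPM tested only 3 members. With the replicate block, the PPP1R15B limma adjusted p was 0.00971, no member's call changed, and the count over all genes went from 879 to 1453. Without a filter 442 genes and 7 pathway list genes passed, and with a filter of 10 TPM 9 pathway list genes did, where fewer were tested. The calls lost without a filter were those of ATF4, TARBP2, HSPA5, TRIB3, VLDLR, ERN1 and PDIA4 (limma adjusted p from 0.0617 to 0.141). The PDIA4 call was also lost with eBayes without trend (limma adjusted p of 0.0591). With the replicate block 21 pathway list genes passed. Leaving out 1 library gave 405 to 785 genes and 7 to 15 pathway list genes. The GCN1 to IMPACT difference ran from -0.0996 to 0.192 over libraries left out. The PPP1R15A log2 fold change turned to -0.0096 under quantile normalization, and over libraries left out it ran from -0.074 (CR31B replicate 3) to 0.070, being also -0.033 without DMSO replicate 3. The cause was not tested. The PPP1R15A to PPP1R15B difference ran from -0.64 to -0.47 over libraries left out, with an adjusted exact permutation p from 0.0857 to 0.171 there. Under a paired exact test, whose smallest p is 0.125, it gave 0.125. EIF2AK4 and PPP1R15A rest on the fewest estimated reads, at most 881 and 635 per library. Their SEs were 0.14 and 0.15, beside 0.15 for EIF2AK1. The scale of log2(TPM + 1) narrows the spread at low levels, so these SEs cannot be set against each other. The part of read number was not tested.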
